A study of Mus musculus with 16 samples.

Results

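The erythroid genes of bone marrow were represented by 7 genes: Alas2, Klf1, Gata1, Epor, Slc4a1, Ank1 and Tfrc. They were chosen by name, and all 7 were found among the 13733 genes of the deposited table. All 7 passed the filter on low values and so stand among the 13173 genes tested. The data are bulk RNA-seq of cells released from mouse knee joints, in 16 libraries that form 4 groups of 4. WT mice were C57BL/6J, and Trem2-/- mice carried the germline allele Trem2em2Adiuj on the same strain, so every cell of these mice lacks an intact Trem2 gene. D0 joints were uninjured, and D7 joints were taken 7 days after rupture of the anterior cruciate ligament by a single tibial compression, given to male mice at 10 weeks of age. The labels record an age of 16 weeks for all samples and hold an extraction text on homogenized joints of control and diabetic mice, so the cell isolation is given here from the study's methods, which for these libraries refer to that of its single-cell work. Joints were digested with collagenase after the skin and muscle were removed, in a way meant to keep marrow cells out, and red blood cells were lysed; whether immune cells were then enriched for the bulk libraries is not stated. Neither source states how many mice gave each library, so the p-values measure the spread between these samples.

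Erythroid cells of the marrow pass from progenitors that depend on erythropoietin through dividing erythroblasts to reticulocytes, which have lost their nucleus but still hold mRNA, and then to red cells. The transcription factor GATA1 drives this path together with its target KLF1, and the cells take up iron through the transferrin receptor, make heme from glycine and succinyl-CoA and build a spectrin skeleton under the membrane. Joint tissue itself does not form red cells in the adult, but it borders on the marrow of the femur and tibia. In bulk samples, fewer cells of a type and less RNA per cell cannot be told apart.

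Values are CPM as deposited, reads scaled to the TMM-adjusted size of each library. Every member was above 0 in all 16 libraries. The libraries held 11567073 to 32867818 reads, and 3 reads were worth 0.101 to 0.250 CPM. The lowest value of any member, 0.594 CPM of Gata1 in WT D7 replicate 4, rested on 10 reads. Trem2, the targeted gene, stood at 1.80 ± 0.71 CPM (mean ± SD, n = 4) in Trem2-/- D0 against 4.56 ± 1.40 in WT D0, and at 4.27 ± 0.64 in Trem2-/- D7 against 16.8 ± 5.08 in WT D7, so it was lower in the knockouts but not at 0. A gene was called where limma gave an unadjusted p below 0.05 and a log2 fold change beyond 0.32 in either direction, the thresholds the study states, and the Benjamini-Hochberg adjusted p over all genes tested is given beside the call. Log2 fold changes are of CPM + 1, which understates the change of low genes.

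The bases before the start sites of 3 members are shown because they hold a GATA motif, the letters that GATA factors such as the member GATA1 are known to bind. RefSeq windows for GRCm38 were at hand for 5 of the 7 members, in 6 windows, and the 250 bases before each start were searched on both strands for the letters GATAA or GATAG with A or T before them. Alas2, Klf1 and Epor held a match, and Gata1 and Tfrc held none. Among all 32851 windows 26.5% held at least 1 match. The stretches below run 5′ to 3′ on the gene's strand and carry the match in capitals. That of Epor ends at its RefSeq start, and those of Alas2 and Klf1 end where GENCODE exons begin before the RefSeq start. They lie at chrX:150547167-150547374 (plus strand, before Alas2), chr8:84901732-84901927 (plus strand, before Klf1) and chr9:21963577-21963826 (minus strand, before Epor).
Alas2: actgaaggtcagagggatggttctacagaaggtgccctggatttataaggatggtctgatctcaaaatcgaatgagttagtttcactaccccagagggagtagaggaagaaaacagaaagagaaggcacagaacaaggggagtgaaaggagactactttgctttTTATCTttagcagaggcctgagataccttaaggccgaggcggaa
Klf1: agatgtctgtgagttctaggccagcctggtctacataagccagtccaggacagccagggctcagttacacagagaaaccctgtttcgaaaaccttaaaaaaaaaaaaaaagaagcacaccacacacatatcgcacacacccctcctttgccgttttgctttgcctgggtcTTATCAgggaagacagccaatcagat
Epor: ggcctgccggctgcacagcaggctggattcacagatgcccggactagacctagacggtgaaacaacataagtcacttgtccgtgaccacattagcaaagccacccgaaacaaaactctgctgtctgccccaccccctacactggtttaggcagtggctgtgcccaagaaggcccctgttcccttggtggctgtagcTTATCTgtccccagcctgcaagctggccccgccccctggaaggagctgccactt
The matches began 86, 80 and 54 bases before the RefSeq starts of Alas2, Klf1 and Epor, and each was read from the opposite strand. The looser CACCC box, searched as CCNCNCCC because KLF1 is known to bind such letters, was found before Alas2, Gata1, Epor and Tfrc, beside 45.9% of all windows. A match of letters is a description and not a bound site.

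The GENCODE M21 annotation of GRCm38 places the members on 5 chromosomes. Alas2 spans chrX:150547375-150570638 and Gata1 chrX:7959260-7978071, Klf1 spans chr8:84901928-84905291 and Ank1 chr8:22974844-23150497, Epor spans chr9:21958897-21963506, Slc4a1 spans chr11:102348824-102366203, and Tfrc spans chr16:32608920-32632794. The exons of Alas2 share 311 bases, 12.9% of their length, with Apex2, which is read from the other strand, and whether counting used strand is not given in the sources used here. Apex2 itself stood between 6.12 and 9.004 CPM in all 16 libraries and was not called at D7 in WT (log2 fold change -0.04). Per kilobase of exon, the medians in WT D0 ran from Alas2 at 38.8 CPM per kb through Tfrc at 26.7, Slc4a1 at 19.5, Klf1 at 5.67, Gata1 at 3.08 and Epor at 2.49 to Ank1 at 2.21. The 4 WT D0 libraries of each gene in this order overlapped with those of the next gene. In Trem2-/- D7 the order began with Tfrc at 13.6 CPM per kb and Alas2 at 9.60.

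All 7 erythroid genes were lower at D7 than at D0, in WT and in Trem2-/- joints. In WT the fold ranged from 1.83-fold lower for Tfrc to 3.04-fold lower for Gata1, and in Trem2-/- from 2.27-fold lower for Tfrc to 4.06-fold lower for Klf1. This order of the members depends on the 1 CPM added before the logarithm: with 5 CPM, Epor fell least (0.69 in WT and 0.82 in Trem2-/- on the log2 scale) and Slc4a1 most (1.48 and 1.79). Over all alternatives, among them the fits with a library left out, the WT log2 fold change ran from -1.73 to -0.69 for Epor. For Tfrc it ran from -0.99 to -0.62. In WT 7 of 7 members were called lower, where 18.2% of all genes tested were called lower, and 7 of 7 had an adjusted p below 0.05 (0.0074 to 0.0447), where the share of all genes lower by that rule was 12.6%. In Trem2-/- the count was again 7 of 7 by the call, against 27.9% of all genes, and 7 of 7 by the adjusted p (2.6e-04 to 0.0062), against 27.2%. The 4 D7 libraries lay wholly below the 4 D0 libraries for 3 of 7 members in WT, where 9.34% of genes did so, and for 7 of 7 in Trem2-/-, where 26.3% did so. Exact permutation p-values over the libraries were 0.0286 for each of these separated members and 0.0571 to 0.114 for the other 4 members in WT. The median log2 fold change over the members was -1.21 in WT and -1.68 in Trem2-/-, beside -0.04 over all genes in each genotype.

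**Figure D1:**
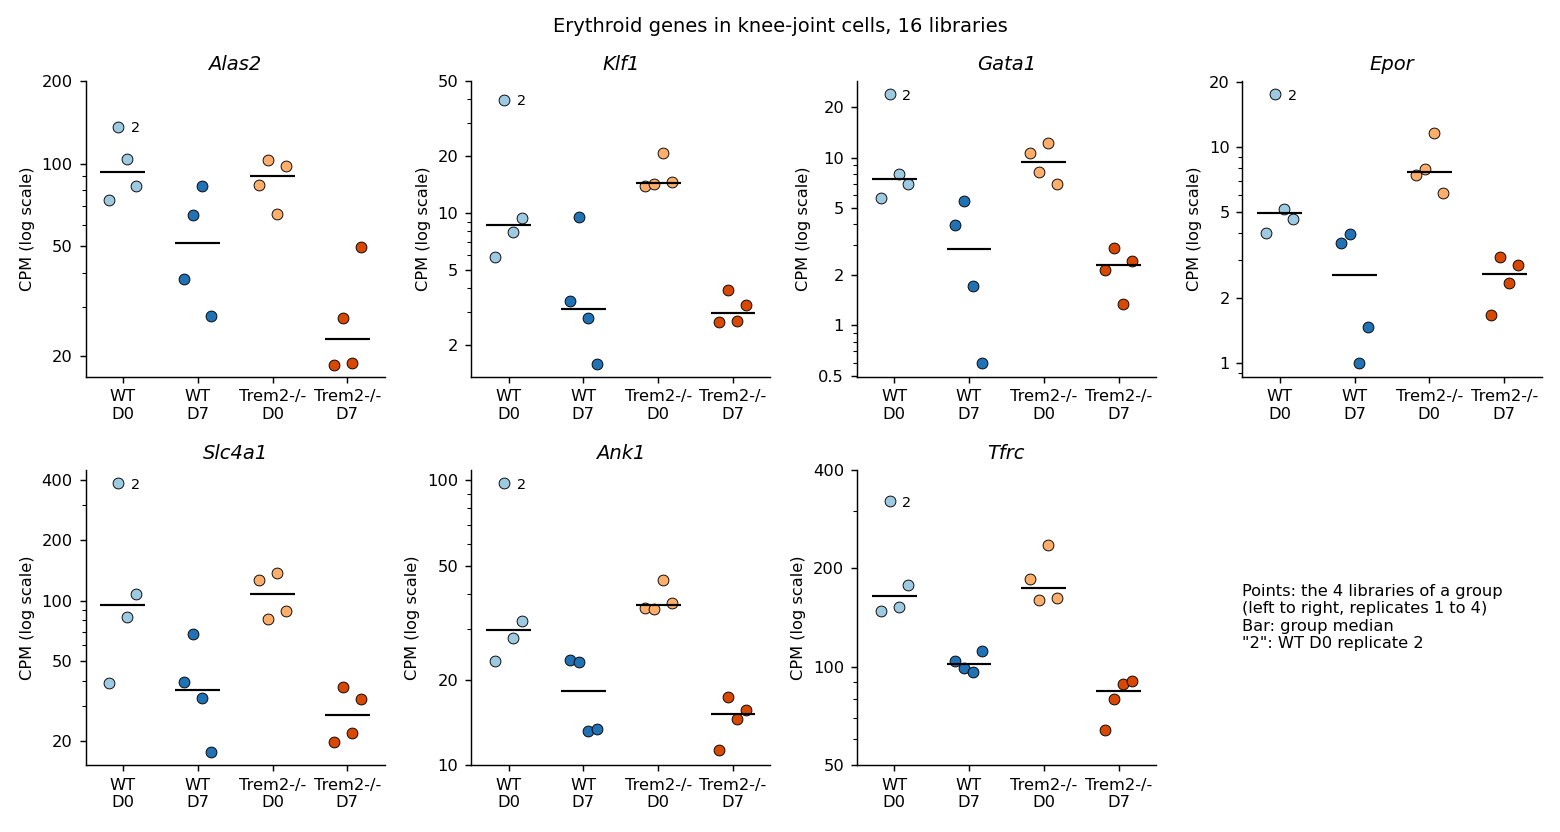
CPM of each member in the 16 libraries, on a log axis, by group; points are single libraries, bars are group medians, and the number 2 marks WT D0 replicate 2. In every panel the D7 medians lie below the D0 medians, and replicate 2 is the highest WT D0 library for all 7 genes.

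Among the transcription factors, Gata1, the master regulator of erythroid and megakaryocyte cells that mast cells and eosinophils also express, read 5.74, 23.8, 8.03 and 6.97 CPM in WT D0 replicates 1 to 4. At D7 its WT libraries read 3.97, 5.55, 1.72 and 0.594 CPM, all of them below the lowest D0 library. It fell by 1.60 ± 0.42 (SE) on the log2 scale in WT (adjusted p = 0.0132, limma), with an exact two-sided permutation p of 0.0286, the smallest that 4 libraries against 4 can give. In Trem2-/- the D0 libraries of Gata1 read 10.7, 8.21, 12.3 and 6.95 CPM and the D7 libraries 2.15, 2.89, 1.34 and 2.42, again without overlap, and the fall was 1.72 ± 0.42 (adjusted p = 0.0034).

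Klf1, the erythroid factor that switches on adult beta globin and many red cell genes, stood at 5.86, 39.9, 7.92 and 9.42 CPM in WT D0. In WT D7 it stood at 3.41, 9.57, 2.79 and 1.60 CPM. The groups overlapped through WT D7 replicate 2, which lay above 3 of the 4 uninjured libraries. The fall of Klf1 in WT was 1.46 ± 0.47 on the log2 scale (adjusted p = 0.0312, limma). Trem2-/- libraries held 13.9, 14.2, 20.8 and 14.6 CPM at D0 and 2.65, 3.93, 2.69 and 3.25 CPM at D7, and the fall was 2.02 ± 0.47 (adjusted p = 0.0022).

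Epor, the receptor through which erythropoietin keeps erythroid progenitors alive, rested on few reads. Its WT libraries gave 4.00, 17.6, 5.21 and 4.68 CPM at D0 and 3.62, 3.96, 1.00 and 1.48 CPM at D7, from 25 to 70 reads at D7. The groups did not overlap, although the highest D7 library lay just under the lowest D0 library, and the fall was 1.21 ± 0.38 (adjusted p = 0.0274, limma). In Trem2-/- the libraries gave 7.46, 7.96, 11.7 and 6.18 CPM at D0 and 1.68, 3.10, 2.35 and 2.84 CPM at D7. That fall of 1.40 ± 0.38 had an adjusted p of 0.0059, and the highest D7 library stood well below the lowest D0 library.

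Alas2, the erythroid form of the enzyme that starts heme synthesis, gave 73.6, 136, 104 and 82.7 CPM in WT D0 and 38.0, 64.9, 82.7 and 27.9 CPM in WT D7. WT D7 replicate 3 lay above D0 replicate 1 for this gene, while its Klf1, Gata1 and Epor stood among the lower WT D7 values. The fall of Alas2 in WT was 0.96 ± 0.34 (adjusted p = 0.0447, limma), and leaving out WT D7 replicate 4 left it uncalled at a log2 fold change of -0.70. In Trem2-/- Alas2 went from 83.3, 103, 65.8 and 97.7 CPM at D0 to 18.5, 27.4, 18.8 and 49.5 CPM at D7. Those groups did not overlap, and the fall was 1.68 ± 0.34 (adjusted p = 8.1e-04).

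The membrane members are Slc4a1, the anion exchanger band 3, and Ank1, the ankyrin that ties band 3 to spectrin and of which skeletal muscle makes a short form. Slc4a1 showed the widest spread of the 7 in WT D0, with 38.8, 384, 83.1 and 108 CPM, a range of 9.89-fold. In WT D7 it gave 39.5, 68.0, 32.7 and 17.7 CPM, which overlapped the D0 values at replicate 1 and replicate 2. The fall of Slc4a1 was 1.58 ± 0.52 in WT (adjusted p = 0.0355) and 1.93 ± 0.52 in Trem2-/- (adjusted p = 0.0062), where the libraries passed from 127, 81.2, 137 and 88.7 CPM to 19.9, 37.4, 22.0 and 32.3 CPM without overlap.

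Ank1 gave 23.3, 97.9, 27.9 and 32.0 CPM in WT D0 and 23.4, 23.1, 13.2 and 13.4 CPM in WT D7. The WT groups touched, since D7 replicate 1 lay just above D0 replicate 1. In Trem2-/- the 4 D0 libraries were tight, at 35.8, 35.3, 44.6 and 37.2 CPM, and all lay above the D7 libraries at 11.3, 17.4, 14.6 and 15.6 CPM. Ank1 fell by 1.06 ± 0.34 in WT (adjusted p = 0.0296, limma) and by 1.33 ± 0.34 in Trem2-/- (adjusted p = 0.0041).

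Tfrc, the transferrin receptor, is highest on erythroblasts but is made by most dividing cells. Its WT libraries read 148, 320, 152 and 178 CPM at D0 and 104, 99.5, 96.3 and 112 CPM at D7, the tightest D7 group of any member (103 ± 6.87, mean ± SD, n = 4). The Trem2-/- libraries read 186, 160, 235 and 162 CPM at D0 and 64.2, 79.9, 88.4 and 90.8 CPM at D7. Neither genotype showed overlap between D0 and D7. Tfrc had the smallest standard error of the 7, and its fall was 0.87 ± 0.20 in WT (adjusted p = 0.0074, limma) and 1.18 ± 0.20 in Trem2-/- (adjusted p = 2.6e-04).

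**Figure D2:**
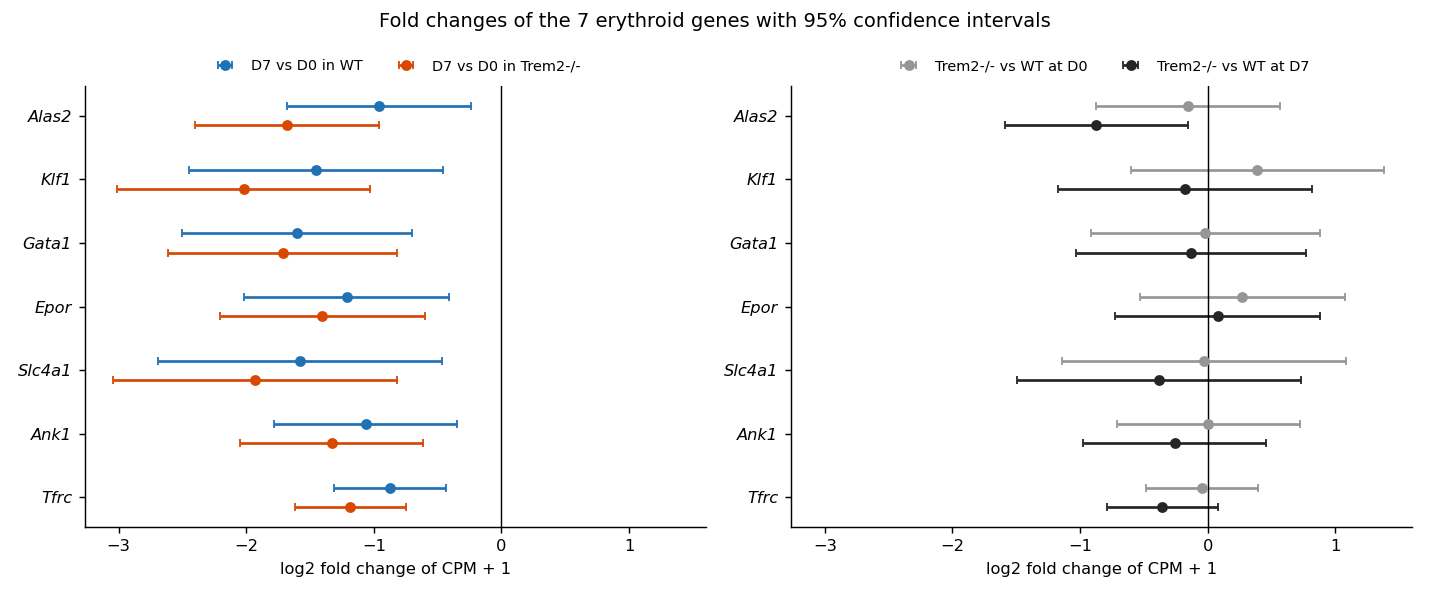
Log2 fold changes of CPM + 1 with 95% confidence intervals from limma for D7 against D0 (left) and Trem2-/- against WT (right), one row per gene. All 14 intervals on the left lie below 0, and on the right the interval of Alas2 at D7 is the only one that excludes 0.

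Whether the loss of Trem2 changed these genes was asked at D7, at D0 and as a difference between the responses to injury. The comparisons share libraries with each other and with those above. At D7 1 of 7 members was called, Alas2, lower in Trem2-/-, where 5.72% of all genes were called and 4.53% were called lower. Alas2 was 1.83-fold lower (95% interval of the ratio 0.332 to 0.899, limma p = 0.0206, exact permutation p = 0.114), but its adjusted p was 0.615 and ranged from 0.30 to 0.99 over the alternatives. Its groups overlapped, since Trem2-/- replicate 4 at 49.5 CPM lay above WT replicates 1 and 4, and the call was lost without WT D7 replicate 2 (log2 fold change -0.74) or replicate 3 (-0.62) and without Trem2-/- D7 replicate 1 (-0.71) or replicate 3 (-0.72). Tfrc was the member whose Trem2-/- D7 libraries all lay below the WT D7 libraries, a separation seen for 4.78% of genes. Its ratio, like the others of CPM + 1, was 0.781 (95% interval 0.577 to 1.06), with an exact permutation p of 0.0286 but a limma p of 0.102, so it was not called. The other 5 members gave ratios between 0.768 for Slc4a1 and 1.06 for Epor, with intervals that reached from 0.355 to 1.84.

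At D0 0 of 7 members were called by limma, where 2.15% of all genes were called. With edgeR on the recovered reads 0 of 7 were called too, beside 466 of all genes. In limma 0 of 7 had an unadjusted p below 0.05, beside 385 of 13173 genes. The ratios of Trem2-/- to WT ran from 0.898 for Alas2 to 1.31 for Klf1, and the interval of Klf1 reached from 0.658 to 2.61. For the interaction of genotype and injury 0 of 7 members were called by limma, beside 7.79% of all genes. With edgeR 0 of 7 were called, beside 1226 of all genes. In limma 0 of 7 had an unadjusted p below 0.05, beside 1075 of 13173 genes. All 7 interaction values were negative, from -0.11 for Gata1 to -0.72 for Alas2, but their intervals all held 0, and that of Alas2 ran from -1.73 to 0.30. Alas2 alone was called for the interaction without WT D7 replicate 4 (-0.98) and without Trem2-/- D7 replicate 4 (-1.01).

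WT D0 replicate 2 stood apart among the uninjured WT libraries. It was the highest of its group for all 7 members, from 1.32-fold above the next library for Alas2 and 1.79-fold for Tfrc up to 3.57-fold for Slc4a1 and 4.23-fold for Klf1. It was also the highest of its group for 17 of 17 red cell membrane genes, 13 of 13 heme synthesis genes and 9 of 9 cell cycle genes, and the lowest for 7 of 8 connective tissue genes and 4 of 5 endothelial genes. In other lists it was the highest for 10 of 15 erythroid factors, 9 of 11 erythroid enzymes, 2 of 6 leukocyte genes and 0 of 1 globin gene. The share of all genes highest in this library was not computed. The part of WT D0 replicate 2 in the results was measured by leaving it out. Without it 7 of 7 members were still called lower at D7 in WT, where 14.8% of all genes were, with log2 fold changes from -1.19 for Gata1 to -0.61 for Ank1, but only Gata1 (adjusted p = 0.0406, limma) and Tfrc (adjusted p = 0.0121) kept an adjusted p below 0.05, as did 6.27% of all genes toward lower values. The 7 calls in Trem2-/- and their adjusted p-values below 0.05 remained. Without this library 3 of 7 members were called higher in Trem2-/- than in WT at D0, Klf1 by 0.95 on the log2 scale, Epor by 0.70 and Ank1 by 0.45, where 2.64% of all genes were called higher. At D7 Tfrc joined Alas2 as called lower (-0.36), beside 4.91% of all genes. The interaction was then called for 3 members, Klf1, Ank1 and Tfrc, at -1.13, -0.71 and -0.56, where 8.1% of all genes were called lower. In this fit 1229 of 13149 genes were called in either direction at D0 and 2233 for the interaction, against 283 and 1026 of 13173 with all libraries. In this fit the lowest adjusted p of the member calls between genotypes and for the interaction was 0.197 in limma (Tfrc, interaction).

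The members varied together from library to library, and Alas2 followed the others less closely. Over the 16 libraries, the 15 pairs formed without Alas2 had Pearson r between 0.86 and 0.96 on log2(CPM + 1), and the 6 pairs with Alas2 between 0.66 and 0.80. The lower values of all members at D7 enter these coefficients. For deviations from the 4 group means, r lay between 0.53 and 0.95 without Alas2 and between 0.16 and 0.51 with it. Leaving out WT D0 replicate 2 gave 0.80 to 0.95 and 0.58 to 0.78 over the remaining libraries. These values are descriptions over libraries that share depth, scaling and condition.

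**Figure D3:**
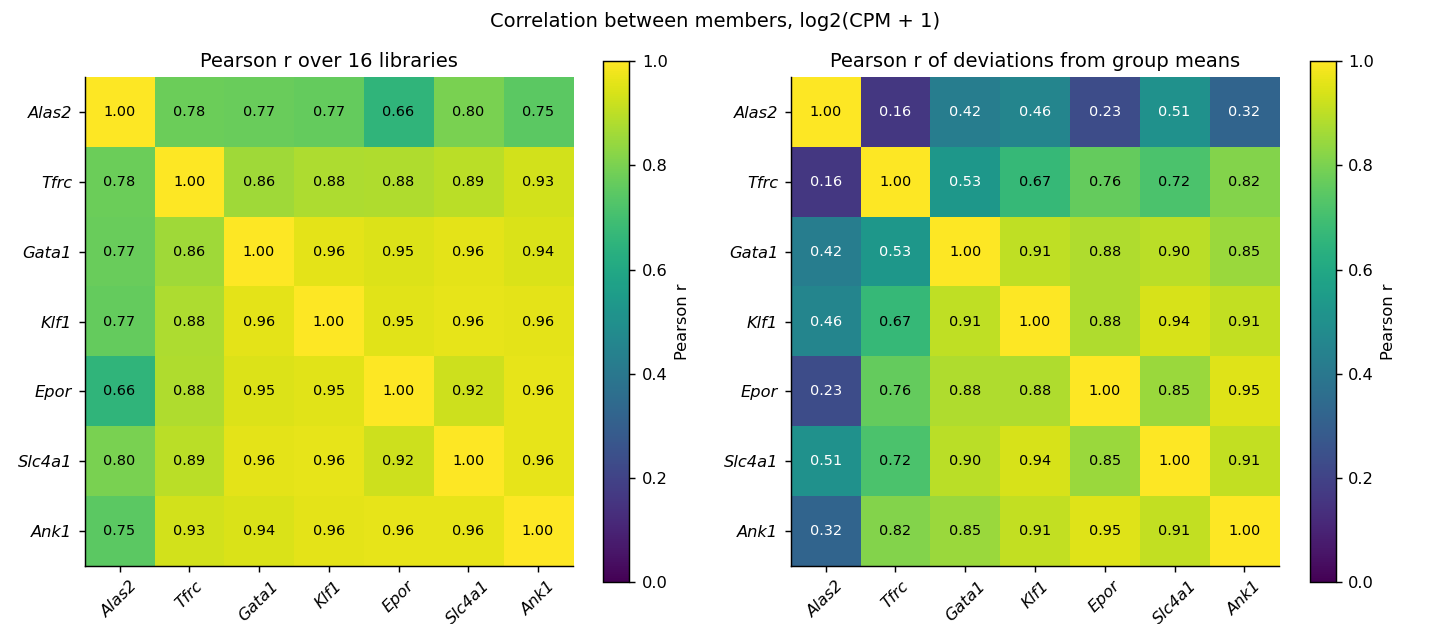
Pearson r between members on log2(CPM + 1), over the 16 libraries (left) and for deviations from the 4 group means (right). The row of Alas2 has the lowest values in both panels, down to 0.16 with Tfrc on the right, while Klf1, Gata1, Epor, Slc4a1 and Ank1 lie between 0.848 and 0.951 among themselves there.

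Likeness was measured as Pearson r on log2(CPM + 1) over the 16 libraries, leaving out genes that averaged under 1 CPM, and genes among the 3 most similar to each member are given with r over all libraries and within groups. Alas2 was followed most closely by Hba-a1, the alpha globin chain, at 0.97 and 0.92, and its list also held the B cell gene Cd79a at 0.93 and 0.75. The counts of Hba-a1 are uncertain, as its near-identical copy Hba-a2 can share its reads. With the other 6 members Hba-a1 had r within groups from -0.17 (Tfrc) to 0.21 (Slc4a1). Among those of Klf1 were Car2 (0.98 and 0.96) and Pklr, the red cell pyruvate kinase (0.98 and 0.96). Gata1 was followed by the erythroblast membrane gene Ermap (0.98 and 0.95), Car2 and Pklr. For Epor the 3 genes were Cldn13, Kel (the Kell blood group antigen) and Pklr, with r from 0.97 to 0.98. For Slc4a1 the list held Hemgn (0.99 and 0.97). Ank1 was closest to Sptb, a beta spectrin (0.99 and 0.98), and its list held Add2, an adducin (0.98 and 0.96). Tfrc was closest to Mcm10, which acts in DNA replication (0.96 and 0.87), Rb1 (0.96 and 0.81) and Rif1 (0.96 and 0.90).

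**Figure D4:**
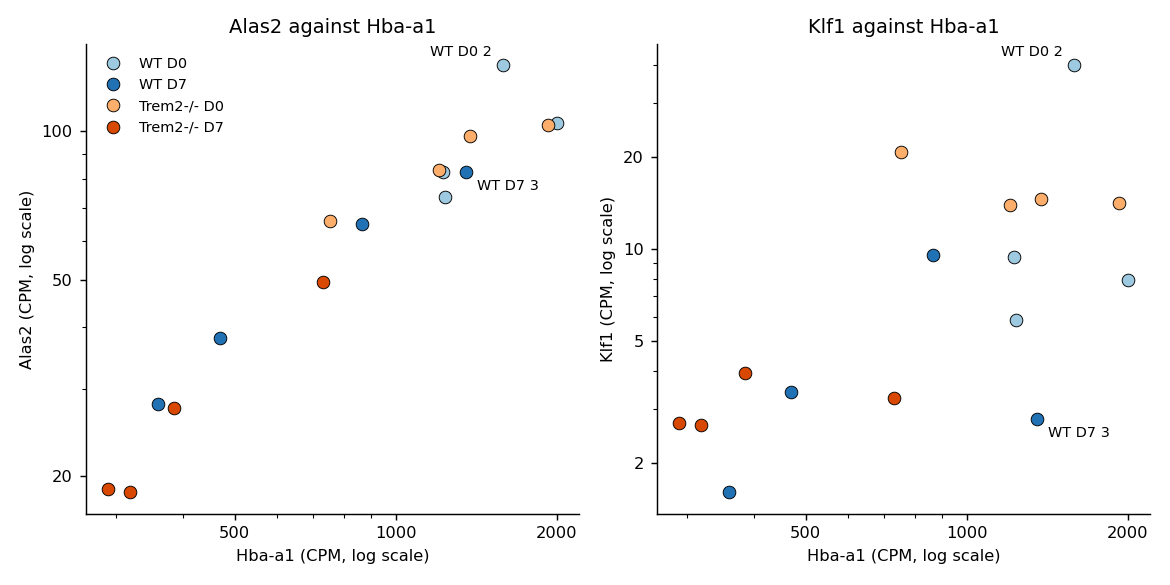
CPM of Alas2 against Hba-a1 and of Klf1 against Hba-a1 in the 16 libraries, on log axes, coloured by group. WT D7 replicate 3 has Hba-a1 at 1353 CPM and Alas2 at 82.7 CPM, inside the range of the uninjured WT libraries, but Klf1 at 2.79 CPM, below all of them.

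Most other genes of the pathway were lower at D7 too, and iron uptake genes were mostly higher. Lists of genes without the members gave 56 tested genes for globins, red cell membrane, heme synthesis, erythroid factors and erythroid enzymes, of which 42 were called lower and 1 higher in WT, where 18.2% of all genes were called lower and 19.3% higher. In Trem2-/- 41 were called lower and 2 higher, where the shares of all genes were 27.9% and 26.5%. These shares are also the background of the list counts that follow. Their median log2 fold change was -0.85 in WT and -1.08 in Trem2-/-, beside -0.04 over all genes. Without WT D0 replicate 2 the WT count was 35 lower and 1 higher. In that fit 14.8% of all genes were called lower and 2113 of 13149 higher in WT. These values are the background of the WT list counts given below without that library.

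Of 17 red cell membrane and skeleton genes, 14 were called lower and 0 higher in each genotype by limma, and 3 were uncalled in each. Ermap fell by 1.66 in WT and 1.95 in Trem2-/- on the log2 scale, Rhag, the Rh-associated glycoprotein, by 1.67 and 1.91, and Kel by 1.59 and 1.88. Among 15 erythroid transcription factors and cofactors, 13 were called lower and 1 higher in WT, and 12 lower and 1 higher in Trem2-/-. Nfe2, which acts on globin genes and platelet formation, fell by 1.34 and 2.35, Gfi1b by 1.57 and 1.83, Hemgn by 1.61 and 1.88 and the cell cycle factor E2f2 by 1.23 and 2.05. The gene that rose was Sox6, by 0.78 and 0.99, a factor that cartilage cells also use.

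Rhag stood in the membrane list and again among the 11 erythroid enzymes and maturation genes, but was not counted again among the 56. Of these 11 genes, 7 were called lower in WT, and 8 lower and 1 higher in Trem2-/-. The carbonic anhydrases Car1 and Car2 led them, with falls of 1.93 and 1.72 in WT and 2.15 and 2.18 in Trem2-/-, and Pklr fell by 1.69 and 1.86. The 13 heme synthesis genes other than Alas2 changed less, with 8 called lower in WT and 7 in Trem2-/- and medians of -0.52 and -0.47. Alad fell by 0.92 and 0.75, Ppox by 0.60 and 0.97 and the mitochondrial iron importer Slc25a37 by 0.55 and 1.15. Without WT D0 replicate 2 only 3 of the 13 heme synthesis genes were called lower in WT. Of 11 globin genes listed, 2 were in the table and 1 passed the filter, Hba-a1, which fell by 1.15 in WT and 1.63 in Trem2-/-.

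Erythropoietin signalling genes other than Epor gave 3 of 7 called lower in WT and 4 of 7 in Trem2-/-, with Cish, a feedback inhibitor of the receptor, falling by 0.75 and 0.92 and Stat5b by 0.46 and 0.69. Spi1 fell by 0.84 and 1.78, but it is a factor of myeloid cells as well. Iron uptake genes other than Tfrc went the other way, with 4 of 6 called higher in WT, 2 of them with an adjusted p below 0.05 in limma, and 5 of 6 in Trem2-/-. The WT count was 2 of 6 without WT D0 replicate 2. Steap3, the reductase of the transferrin cycle, rose by 0.70 and 0.996, Slc11a2 by 0.40 and 0.86 and Aco1 by 0.46 and 0.72. The single iron uptake gene called lower was Tfr2, which erythroid cells and liver are known to express, at -1.47 and -1.34. Among 7 heme and iron recycling genes, 2 were called lower in WT and 3 in Trem2-/-, among them Slc40a1, the iron exporter ferroportin, by 0.98 and 1.29, and the haptoglobin gene Hp by 1.30 and 2.11.

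Between genotypes few pathway genes were called. At D7 5 of the 56 erythroid list genes were called lower in Trem2-/-, beside 4.53% of all genes, and 0 higher by limma, among them Epb41 (-0.44), Cd24a (-0.63), Nfe2 (-0.82) and Bcl11a (-0.64), each on the log2 scale and each with an adjusted p of at least 0.45 in limma. Cd24a, Nfe2 and Bcl11a are also used by white blood cells. The median of the 56 genes was -0.14 and turned to 0.07 without WT D7 replicate 2, when 23 in place of 40 were negative. Spi1 (-0.61) and Cd163 (-0.80), from the signalling and recycling lists, were called lower as well. At D0 the calls were Sox6 (-0.62) and Bcl2l1 (0.53). Without WT D0 replicate 2, 8 of the 56 genes were called higher in Trem2-/- at D0, where 2.64% of all genes were. For the interaction 15 of the 56 were then called lower, where 8.1% of all genes were. With all libraries 5 were called lower for the interaction, beside 661 of 13173 genes. Without WT D7 replicate 2 it was 2, beside 736 of 13160 genes. The partner of Alas2, Hba-a1, had a log2 fold change of -0.73 at D7 with an adjusted p of 0.744, and was not called.

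**Figure D5:**
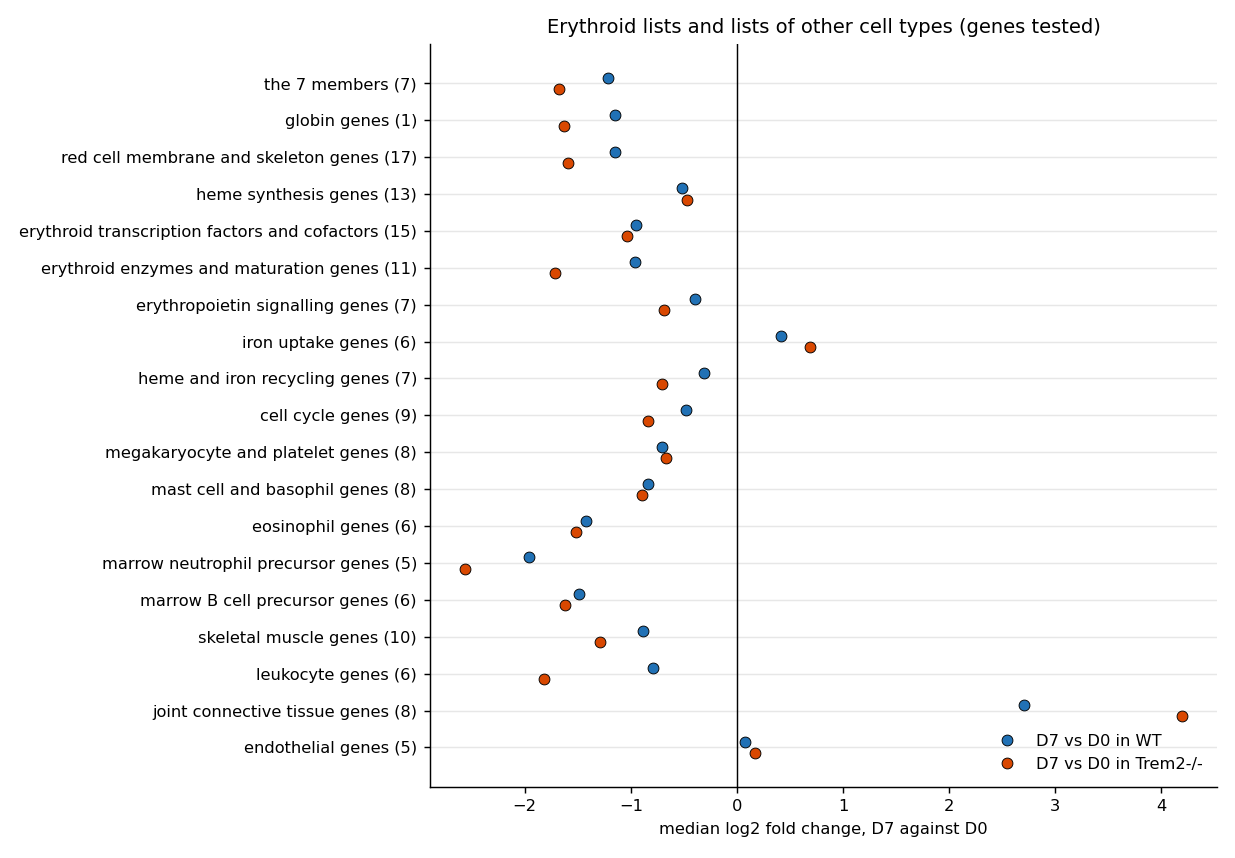
Median log2 fold change at D7 against D0 for the 7 members, 8 pathway lists and 10 lists of other cell types, in WT and Trem2-/-; the number of genes tested stands beside each name. The erythroid lists lie between -1.71 and -0.47, the marrow precursor lists lie lower or alongside, and iron uptake and connective tissue genes lie above 0.

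Genes of other blood and marrow cells were lower at D7 along with the erythroid genes. The neutrophil precursor genes Elane, Mpo, Prtn3, Ctsg and Ms4a3 were called lower in 5 of 5 in each genotype (medians -1.96 in WT and -2.56 in Trem2-/-), the B cell precursor genes in 6 of 6 (-1.49 and -1.62), the eosinophil genes in 6 of 6 (-1.43 and -1.52; 3 of 6 in WT without WT D0 replicate 2, and 4 of 6 in Trem2-/- without WT D7 replicate 2) and the leukocyte genes, among them Ptprc, in 6 of 6 (-0.79 and -1.82). Summed over the list, the neutrophil precursor genes ranged from 608 to 2477 CPM in WT D0 and from 230.1 to 544 in WT D7, and from 866 to 4034 in Trem2-/- D0 and 257 to 357 in Trem2-/- D7. Cell cycle genes were called lower for 4 of 9 in WT and 7 of 9 in Trem2-/-, and for 2 of 9 in WT without WT D0 replicate 2. Of the lists for other cells that use Gata1, 5 of 8 mast cell and basophil genes were called lower in each genotype, and megakaryocyte genes gave 3 lower and 1 higher of 8 in WT, with 1 lower without WT D0 replicate 2, and 3 lower and 2 higher in Trem2-/-. Muscle genes, which bear on Ank1, were called lower for 3 of 10 in WT and 9 of 10 in Trem2-/-, and in WT for 5 of 10 without WT D0 replicate 2 and 1 of 10 without WT D7 replicate 2. Connective tissue genes were called higher for 6 of 8 in WT and 7 of 8 in Trem2-/-, and their summed level ranged from 11922 to 65990 CPM in WT D0 and from 134797 to 189811 CPM in WT D7. Endothelial genes were uncalled for 5 of 5 in both genotypes, with medians of 0.08 and 0.17. The part of these lists in the values of the members was not tested. The comparison with leukocyte genes that follows describes the members relative to that list and does not test its part.

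Relative to the leukocyte genes, which were lower at D7 themselves, the members differed less between D7 and D0. The mean log2(CPM + 1) of the 6 leukocyte genes was 8.28 in WT D7 and 9.16 in WT D0, and 7.56 in Trem2-/- D7 and 9.39 in Trem2-/- D0. Members minus this mean differed between D7 and D0 by -0.72 for Gata1 to 0.01 for Tfrc in WT, with exact permutation p-values from 0.314 to 0.971, and 0 of 7 lay wholly lower at D7. The share of all genes wholly lower on this scale was not computed, so this count has no background. In Trem2-/- the differences ran from -0.19 for Klf1 to 0.65 for Tfrc, and 0 of 7 lay wholly lower at D7, again without a background. Tfrc there was higher at D7 relative to the leukocyte genes in all 4 libraries (exact permutation p = 0.0286). After Benjamini-Hochberg adjustment over the 7 members this permutation p was 0.2. At D7 the leukocyte genes were themselves called lower in Trem2-/- than in WT for 6 of 6, and relative to them Alas2 differed between genotypes by -0.16 (exact permutation p = 0.686). This comparison was chosen after the data were seen.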

How the data were processed

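Per the labels and the study's methods, reads of mouse knee-joint cells were aligned to mm10 (GRCm38) with STAR, counted per gene with featureCounts and scaled with TMM in edgeR by the authors. Versions, the annotation and the strand setting are not given in the sources used here. The deposited signal is TMM-scaled CPM for 13734 rows, 1 of them an identical repeat that was dropped. The values were whole multiples of 1 read (100% within 0.1 of a read), so reads and depth were recovered. The study tested with limma and voom.

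Here log2(CPM + 1) was fitted with limma 3.58.1 (R 4.3.3; eBayes with trend) over the 4 groups, keeping genes that reached 1 CPM in 4 or more libraries. Single values were compared by exact permutation over the 70 assignments of 4 and 4 libraries. The fit was tested on simulated data. Alternatives were other pseudocounts (0.1, 5), filters, scalings and fits, voom and edgeR 4.0.16 on the recovered reads, and each library left out. The members and gene lists were chosen with earlier results of these data known. Named genes were the members, Trem2, the 3 genes most correlated with each member (mean of at least 1 CPM), and list genes called at D7 in both genotypes (up to 4 a list) or between genotypes; some of these are not reported here. Context lists covered other cells a joint can hold. Promoter windows came from RefSeq (GRCm38.p6). Libraries were not paired by number.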

Additional observations from a re-analysis of the deposited data

Results flagged for a closer look

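In a group of 4, a library was marked where its gap to the nearest other library as a share of the group's range exceeded Dixon's 95% critical value, which chance gives in about 1 of 20 groups, and 5 of 28 groups were marked. WT D0 replicate 2 was marked for 4 members, with a gap of 0.895 of the range for Klf1, 0.873 for Gata1, 0.911 for Epor and 0.883 for Ank1. These 4 marks come from 1 library and are not independent of each other. Trem2-/- D0 replicate 3 was marked for Klf1, at 20.8 CPM with a gap of 0.9 of the range.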

How the results depend on the processing

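All 7 members were called lower at D7 in both genotypes under each of 12 alternatives, and in the 16 fits with a library left out 6 or 7 were called in WT and 7 in Trem2-/-. The count with an adjusted p below 0.05 in WT was 1 when only the 2 groups compared were fitted and 2 to 7 with a library left out, namely 2 when WT D0 replicate 2 or WT D7 replicate 4 was left out, 3 for WT D7 replicate 3 and 4 for WT D7 replicate 1. In Trem2-/- it was 7 throughout. Relative to the leukocyte genes, 0 members lay wholly lower at D7 in each genotype, against 3 and 7. Tfrc in Trem2-/- lay wholly higher on that scale, with an exact permutation p of 0.2 after adjustment over the 7 members. The share of all genes wholly lower on that scale was not computed. With a pseudocount of 5 the falls of Klf1, Gata1 and Epor, the members with low counts, were 0.96, 0.94 and 0.69 in WT and 1.35, 1.00 and 0.82 in Trem2-/-. Other alternatives gave these genes larger falls, with WT log2 fold changes down to -1.87, -2.16 and -1.73. Members called between genotypes at D7 were 2 when only these groups were fitted and 0 to 2 with a library left out, while uninjured joints and the interaction each gave 0 to 3. Differences near 0 changed sign: Epor at D7 was -0.0094 with edgeR on recovered reads, and Ank1 at D0 was -0.0102 with a pseudocount of 5, -0.0035 with quantile normalization, -8.6e-04 with voom on recovered reads and -0.244 with edgeR. With a library left out the log2 difference between genotypes at D7 ran from -0.45 to 0.22 for Klf1, -0.50 to 0.18 for Gata1 and -0.16 to 0.28 for Epor, at D0 from -0.28 to 0.0093 for Alas2, -0.23 to 0.40 for Gata1, -0.51 to 0.58 for Slc4a1, -0.22 to 0.45 for Ank1 and -0.16 to 0.21 for Tfrc, and the interaction from -0.53 to 0.20 for Gata1, -0.62 to 0.0087 for Epor and -0.96 to 0.13 for Slc4a1. With the replicate number as a block, 7 members were called in each genotype at D7 against D0, 1 between genotypes after injury, 0 before it and 0 for the interaction. Same-number libraries of WT D0 and WT D7 deviated with r of 0.046, 0.20, 0.41 and 0.31, and over all 24 pairs of same-number libraries r ran from -0.51 to 0.41 with 11 above 0.1, so the numbers were not taken as pairs. Over all genes, a fold limit of 1.5 gave 340 instead of 753 between genotypes at D7, 131 instead of 283 at D0, 2985 instead of 4933 in WT and 635 instead of 1026 for the interaction. Fitting only the groups compared gave 1366 at D7 and 149 at D0, a pseudocount of 5 gave 164 at D0 and edgeR 466. With a library left out the counts ran from 479 to 1121 between genotypes at D7, 107 to 1229 in uninjured joints and 609 to 2233 for the interaction, where WT D0 replicate 2 gave 1229 and 2233. Among genes called between genotypes at D7, the share lower was 79.3%, but 67.9% with quantile normalization, 62.3% when WT D7 replicate 2 was left out and 65.5% in the fit of these groups alone. At D0 it was 63.6%, but 76.6% with edgeR, and below 50% without WT D0 replicate 1 (34.4%) and without Trem2-/- D0 replicate 3 (38.2%), replicate 4 (44.3%) or replicate 1 (49.0%). The cause of these changes was not tested. Precision is limited by 4 libraries a group and, for Gata1 and Epor at D7, by 10 to 98 and 25 to 70 reads.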
